A study of Homo sapiens with 4 samples.

Results

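HMOX1 and 8 genes around the transcription factor NRF2 were followed in 4 RNA sequencing libraries of glioblastoma (GBM) cells. The genes were chosen by name, with earlier results of these data known. They are HMOX1, 6 further targets of NRF2 (NQO1, GCLM, GCLC, TXNRD1, SLC7A11 and SRXN1), the NRF2 gene itself (NFE2L2) and KEAP1, the gene of its inhibitor. All 9 were found among the 58735 genes of the deposited tables, and all 9 belonged to the 12949 that averaged at least 1 FPKM across the 4 libraries, called expressed genes below. FPKM, the number of fragments scaled to gene length and library size, is a level per length, so it can be compared between genes of a library.

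RNA was taken from U251 and U87 cells, established human GBM lines grown in culture, as a Control and after Bru (brusatol). The 4 groups were U251 Control, U251 Bru, U87 Control and U87 Bru, with 1 library each, and the labels name no engineered change in either line. In the study's text, cells received Bru for 48 h at the IC50, a concentration defined by its inhibitory effect. The labels give neither the dose nor the vehicle of the Control. The study's viability time courses used a higher dose in U251 than in U87. Whether both lines received the same dose for RNA is not stated. A difference between lines in the response to Bru therefore cannot be told apart from a difference in dose. Each line stands for its own cultured cells only, without the other cells of a tumor.

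NRF2 is a transcription factor that KEAP1, an adaptor of a CUL3 ubiquitin ligase, keeps at a low level by marking it for degradation. When oxidants or electrophiles modify cysteines of KEAP1, NRF2 accumulates, pairs with small MAF proteins and binds antioxidant response elements in front of genes for glutathione synthesis, quinone reduction, thioredoxin and heme breakdown. HMOX1, heme oxygenase 1, splits heme into biliverdin, carbon monoxide and iron, and it is also held down by the repressor BACH1, which heme displaces. Bru is a plant quassinoid known to block protein synthesis and to lower NRF2 protein, and RNA levels give no measure of that protein.

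The core of the antioxidant response element, TGACNNNGC, was searched on both strands of RefSeq promoters (build GRCh38.p14, 250 bases before to 50 bases after a start). Promoters were found for 7 of the 9 genes, 10 promoters in all, and none was found for HMOX1 and SLC7A11. The core was present in 4 of the 10 promoters, those of GCLM, KEAP1 and TXNRD1, and in 13.3% of all 35116 promoters of the same length. Among the gene lists used below, it was in 57.1% of promoters of the metal response and 36.4% of the ATF4 response. For other NRF2 targets the share was 33.3%, and in the remaining lists it was 6.67% to 18.5%. A high share was thus not particular to the 9 genes. Elements outside this window were not searched, so a promoter without a match can have an element elsewhere. The 6 matches are shown with 10 bases on each side, 5′ to 3′ on the strand of the gene, because they show where these promoters hold the letters of the element, and capitals mark the core.
GCLM, chr1:93909446-93909474, minus strand: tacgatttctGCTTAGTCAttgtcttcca
KEAP1, chr19:10502807-10502835, minus strand: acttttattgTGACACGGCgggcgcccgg
KEAP1, chr19:10502784-10502812, minus strand: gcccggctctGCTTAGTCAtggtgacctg
TXNRD1, chr12:104215670-104215698, plus strand: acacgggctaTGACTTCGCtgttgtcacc
TXNRD1, chr12:104215761-104215789, plus strand: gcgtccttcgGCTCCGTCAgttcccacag
TXNRD1, chr12:104286920-104286948, plus strand: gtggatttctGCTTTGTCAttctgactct
GCLM and the second match of KEAP1 hold the same 9 letters, which read as the core on the opposite strand. In GCLM they lie from base -34 to base -26 before the start, and in KEAP1 from base -31 to base -23. The 2 KEAP1 matches and the last TXNRD1 match belong to starts inside the gene, and all 29 bases of each lie in an exon of the gene in GENCODE release 29. The core of the amino acid response element, TGATGNAA, was in 0 of the 10 promoters and in 3.62% of all promoters. A match is a stretch of letters and was not tested for binding.

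The libraries held between 17083896 and 21453561 reads on genes, recovered from the FPKM as whole reads, so that 3 reads on a gene of 1 kilobase correspond to an FPKM of 0.143 to 0.172. The mesenchymal glioma markers VIM and CD44 were abundant in all 4 libraries, whereas NES was at 125 and 50.6 FPKM in U251 and 1.46 and 0.569 FPKM in U87 (Control and Bru), and GFAP was at most 2.42 FPKM. SOX2 had 0 and 2 reads in U87. Of 12 glial and glioma markers 6 were expressed. Of these 6, 2 were more than 2-fold lower in U251 Bru and 1 in U87 Bru, beside 5.44% and 1.41% of all expressed genes. The FPKM of the 12 summed to 1162 and 897 in Control and Bru of U251 and to 803 and 763 in those of U87. The part of these markers in the results was not tested. Of 10 markers of other cells 0 were expressed, and the highest, PECAM1, was at most 0.499 FPKM, with sums of 0.380 and 0.674 FPKM in U251 and 1.80 and 1.34 FPKM in U87. Ratios are log2 values of Bru to Control on FPKM + 0.1, and the brackets give the 95% exact interval of the ratio of reads. These intervals cover counting error only and compare 2 libraries, not 2 conditions, and there is no replicate check and no p-value because each condition has 1 library. In RNA of many cells, a change in the share of cells that express a gene and a change in RNA per cell cannot be told apart.

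HMOX1 was higher in the Bru library of both lines, and it was the one gene of the 9 that passed a 2-fold difference, in U251. HMOX1 (ENSG00000100292, chromosome 22, bases 35380361 to 35394214, plus strand, GRCh38) had 14.0 FPKM (704 reads) in the Control library of U251 and 163 FPKM (7259 reads) in its Bru library. In U87 it had 57.4 FPKM (2496 reads) in Control and 106 FPKM (4453 reads) in Bru. The untreated U251 library was thus the lowest of the 4 and the treated U251 library the highest. The ratio was 3.54 on the log2 scale in U251 [3.43, 3.66], an 11.7-fold difference, and 0.89 in U87 [0.82, 0.96], a 1.85-fold difference. Ordered by ratio from the top, HMOX1 stood at position 14 of the 12949 genes in U251 and at position 300 in U87. No exon of another gene overlaps HMOX1, and 0.458% of its stretches of 50 bases also occur in transcripts of other genes. The FPKM by library are shown in the plot of levels.

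**Figure D1:**
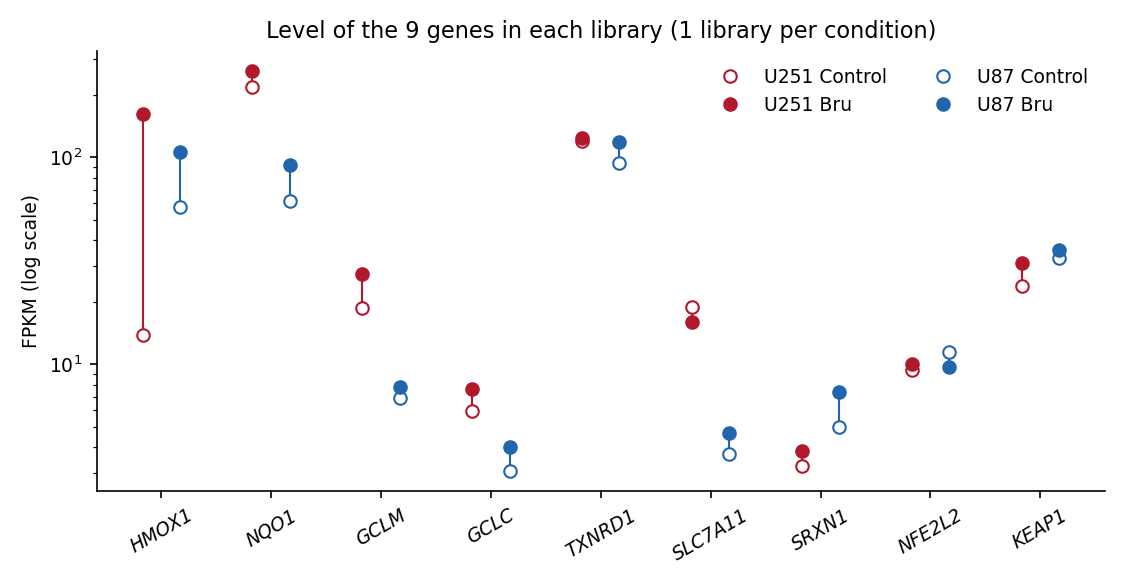
FPKM on a log scale for the 9 genes in U251 Control, U251 Bru, U87 Control and U87 Bru, 1 point per library. HMOX1 lies at 14.0 FPKM in U251 Control and 163 FPKM in U251 Bru, while for each of the other 8 genes the Control and Bru points of a line lie close to each other.

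In U251, 1 of the 9 genes was more than 2-fold higher in Bru and 0 were more than 2-fold lower, beside 3.36% and 5.44% of all 12949 genes. In U87, 0 of the 9 passed 2-fold in either direction, beside 1.92% of all genes higher and 1.41% lower. The ratio was above 0 for 8 of the 9 genes in each line, and the gene below 0 was SLC7A11 in U251 and NFE2L2 in U87. Over all genes the ratio was above 0 for 47.2% in U251 and 42.3% in U87, with a median of -0.03 and -0.04. The 8 genes other than HMOX1 had a median ratio of 0.24 in U251, with a range of -0.24 to 0.54, and of 0.33 in U87, with a range of -0.23 to 0.59. The range of the 8 genes was thus of similar width in both lines, whereas HMOX1 stood above it by a wide margin in U251 and by a narrow one in U87.

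**Figure D2:**
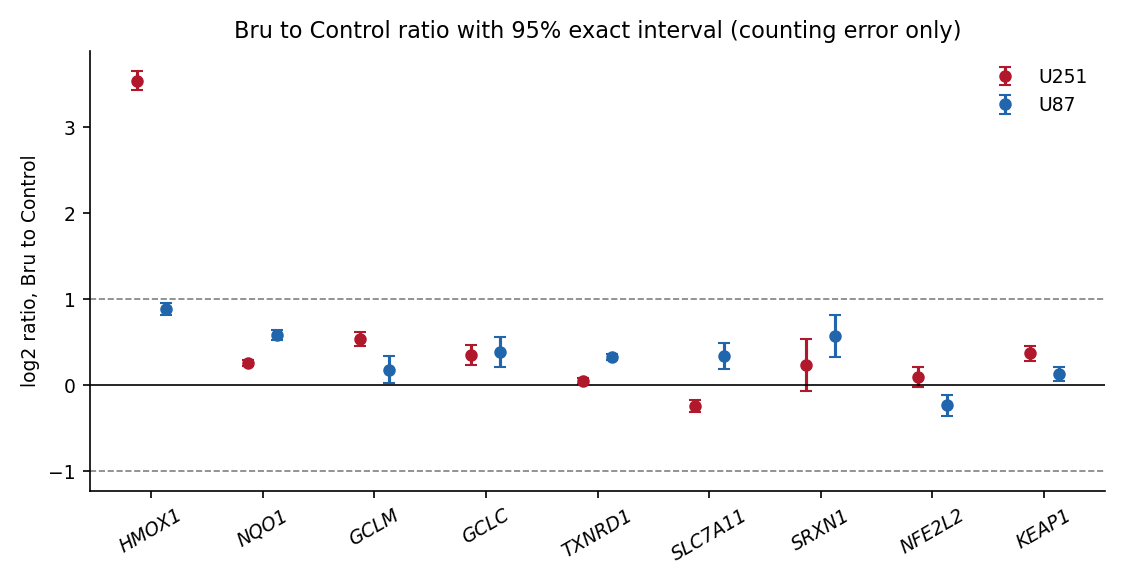
log2 ratio of Bru to Control for the 9 genes in U251 and U87, with vertical lines for the 95% exact interval of counting error and the 2-fold difference marked. HMOX1 in U251 lies at 3.54, and the other values lie between -0.24 and 0.89.

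Both subunits of the enzyme that starts glutathione synthesis were higher in Bru in U251 and in U87. GCLM (ENSG00000023909, chromosome 1, bases 93885205 to 93909456, minus strand) encodes the modifier subunit of glutamate-cysteine ligase, which makes the first bond of glutathione. It had 18.8 and 27.2 FPKM in Control and Bru of U251, and 6.87 and 7.79 FPKM in those of U87. Its ratio was 0.54 in U251 [0.46, 0.62], the second largest of the 9 genes in that line, and 0.18 in U87 [0.03, 0.33], the lowest of the 7 NRF2 targets there. GCLC (ENSG00000001084, chromosome 6, bases 53497341 to 53616970, minus strand), the catalytic subunit of the same enzyme, had 5.94 and 7.58 FPKM in U251 Control and Bru, and 3.05 and 3.99 FPKM in U87 Control and Bru. The GCLC ratio was 0.35 [0.23, 0.47] in U251 and 0.37 [0.21, 0.56] in U87, so it was nearly equal in both lines. The level of GCLM was above that of GCLC in every library, with an FPKM ratio of 3.16 and 3.59 in Control and Bru of U251 and of 2.25 and 1.95 in those of U87.

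SLC7A11 (ENSG00000151012, chromosome 4, bases 138164097 to 138242349, minus strand) encodes the cystine importer xCT, which brings in the cystine for glutathione. It had 18.9 FPKM (3827 reads) in Control and 16.0 FPKM (2867 reads) in Bru of U251. In U87 it had 3.68 FPKM (641 reads) in Control and 4.65 FPKM (781 reads) in Bru. The ratio was -0.24 in U251 [-0.31, -0.17] and 0.33 in U87 [0.19, 0.49], so SLC7A11 was lower in Bru in U251 and higher in Bru in U87. Its partner in the transporter, the heavy chain gene SLC3A2, was higher in Bru in both lines, with 47.7 and 154 FPKM in U251 Control and Bru and a ratio of 1.69 [1.65, 1.74], and with 65.9 and 99.6 FPKM in U87 and a ratio of 0.60 [0.55, 0.64]. Of the exon bases of SLC7A11, 865 of 9645 overlap the antisense gene SLC7A11-AS1, which had between 3 and 27 reads in a library.

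NQO1 and TXNRD1 had a larger ratio of Bru to Control in U87 than in U251. NQO1 (ENSG00000181019, chromosome 16, bases 69706996 to 69726951, minus strand) encodes a quinone reductase and is a widely used readout of NRF2 activity. It had 220 and 262 FPKM in U251 Control and Bru and 61.4 and 92.2 FPKM in U87 Control and Bru. Its ratio was 0.26 [0.22, 0.29] in U251 and 0.59 [0.52, 0.65] in U87, where it was second to HMOX1 among the 9 genes. TXNRD1 (ENSG00000198431, chromosome 12, bases 104215779 to 104350305, plus strand), the cytosolic thioredoxin reductase, had 119 and 124 FPKM in U251 and 94.3 and 119 FPKM in U87. The TXNRD1 ratio of 0.05 in U251 [0.02, 0.08] was the smallest in size among the 9 genes, and the ratio in U87 was 0.33 [0.29, 0.37].

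SRXN1 (ENSG00000271303, chromosome 20, bases 646615 to 653370, minus strand) encodes sulfiredoxin, which repairs overoxidized peroxiredoxins. It was the gene with the fewest reads, with 3.23 FPKM (183 reads) and 3.80 FPKM (190 reads) in Control and Bru of U251, and with 4.96 FPKM (242 reads) and 7.37 FPKM (346 reads) in those of U87. The ratio was 0.23 in U251 [-0.07, 0.53], an interval that includes 0, and 0.56 in U87 [0.33, 0.81]. A difference in U251 was not detectable at this depth. Of the exon bases of SRXN1, 2292 of 2698 also belong to the gene AL121758.1 on the same strand, which was listed with 0 reads in 3 libraries and 3 reads in U87 Bru, so the SRXN1 level is uncertain.

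The regulators NFE2L2 and KEAP1 stayed within 2-fold in both lines, and KEAP1 had the third largest ratio of the 9 genes in U251. NFE2L2 (ENSG00000116044, chromosome 2, bases 177227595 to 177392697, minus strand), which encodes NRF2, had 9.46 and 10.1 FPKM in U251 Control and Bru and 11.5 and 9.75 FPKM in U87 Control and Bru. Its ratio was 0.09 [-0.02, 0.21] in U251, an interval that includes 0, and -0.23 [-0.35, -0.11] in U87. KEAP1 (ENSG00000079999, chromosome 19, bases 10486120 to 10503741, minus strand) had 24.0 and 31.0 FPKM in U251 and 32.8 and 35.9 FPKM in U87, with a ratio of 0.37 [0.28, 0.46] in U251 and 0.13 [0.04, 0.21] in U87. In each line the FPKM of KEAP1 relative to that of NFE2L2 was larger in Bru. It was 2.53 [2.35, 2.73] in Control and 3.07 [2.85, 3.30] in Bru of U251, and 2.86 [2.67, 3.07] and 3.68 [3.41, 3.96] in those of U87. Within a line these intervals, which cover counting error only, do not overlap. Of the exon bases of NFE2L2, 1054 of 5979 also belong to the gene AC019080.1 on the same strand. That gene had between 22 and 64 reads in a library, so the NFE2L2 level is less certain.

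The ratio of HMOX1 was next set against that of each other gene in the same 2 libraries, a comparison in which the library size cancels. In U251, HMOX1 exceeded the other 8 genes by 3.01 on the log2 scale against GCLM [2.87, 3.15] up to 3.78 against SLC7A11 [3.65, 3.92], which is 8.03 to 13.8 times. Against NQO1, the most abundant of the 9 genes in U251, the HMOX1 ratio was larger by 9.78 times. In U87, HMOX1 exceeded the others by 0.30 against NQO1 [0.21, 0.40] up to 1.12 against NFE2L2 [0.98, 1.26], which is 1.23 to 2.18 times. SRXN1 was close to NQO1 in this respect, with a difference of 0.32 [0.07, 0.57] in U87. All 16 intervals lay above 0 as far as counting error goes. With an assumed coefficient of variation between replicates of 0.2, the interval stayed above 0 for 8 of 8 genes in U251 and for 0 of 8 in U87.

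Among the 9 genes, HMOX1 was the one whose ratio differed most between lines. Its log2 ratio was 2.66 larger in U251 than in U87 [2.52, 2.79], which is 6.30 times. GCLM, KEAP1 and NFE2L2 also had the larger ratio in U251, by 0.36 [0.18, 0.53], 0.24 [0.12, 0.37] and 0.33 [0.16, 0.50]. SLC7A11, NQO1 and TXNRD1 had the larger ratio in U87, with a difference of U251 minus U87 of -0.58 [-0.75, -0.41], -0.33 [-0.40, -0.26] and -0.28 [-0.33, -0.23]. For GCLC the difference was -0.03 [-0.25, 0.18] and for SRXN1 it was -0.34 [-0.73, 0.05], and both intervals include 0. The interval of counting error left out 0 for 7 of the 9 genes, and the share over all genes was not computed. With an assumed coefficient of variation of 0.2 the interval left out 0 for 1 gene, which was HMOX1. In the plot of both ratios, HMOX1 is the gene farthest to the right of the group.

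**Figure D3:**
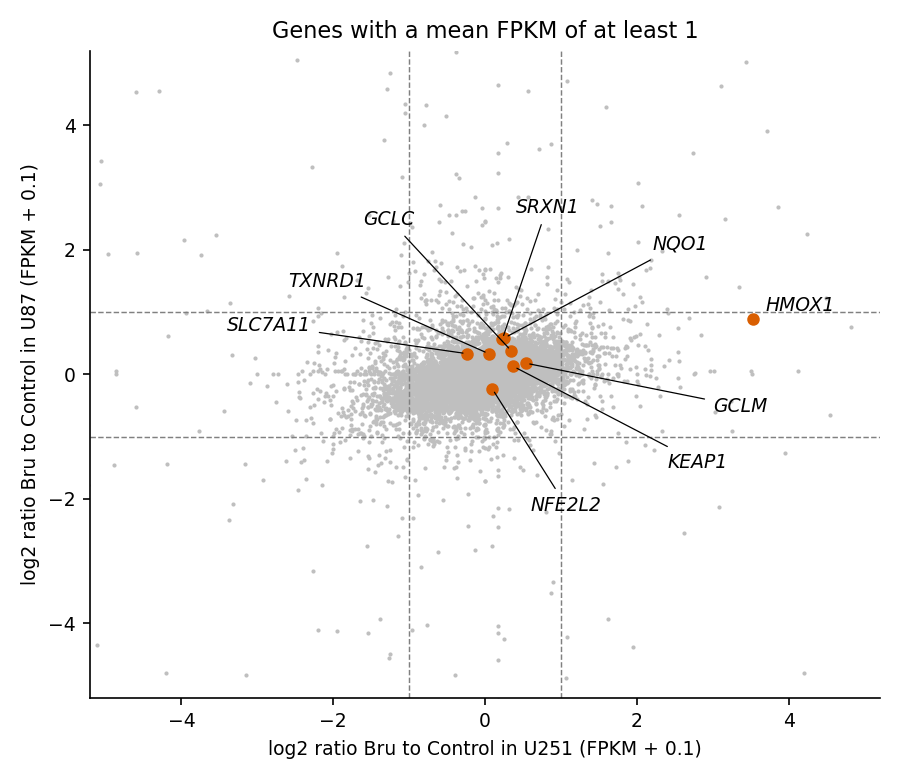
log2 ratio of Bru to Control in U251 (horizontal axis) and U87 (vertical axis) for expressed genes, in grey, with the 9 genes marked and named; 16 of the 12949 genes lie outside the axes. HMOX1 lies at 3.54 and 0.89, and the other 8 genes run from -0.24 to 0.54 on the U251 axis and from -0.23 to 0.59 on the U87 axis.

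The single Control libraries of the lines already differed. HMOX1 was 4.12 times higher in U87 Control than in U251 Control [3.78, 4.48], while SLC7A11 was 5.14 times, NQO1 3.58 times, GCLM 2.73 times, GCLC 1.95 times and TXNRD1 1.27 times higher in U251 Control. KEAP1, NFE2L2 and SRXN1 were higher in U87 Control by 1.37, 1.21 and 1.53 times. Of the 9 genes, 1 was more than 2-fold higher in U87 Control and 3 were more than 2-fold lower, beside 14.5% and 16.0% of all genes. All 9 intervals left out equality as far as counting error goes. The share of all genes whose interval does so was not computed, so this count sets the 9 genes apart from no others. In the Bru libraries HMOX1 was 1.53 times higher in U251, so the order of the lines was the opposite of that in Control. The Control libraries enter both this comparison and the Bru ratios.

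Ordered by FPKM within a library, NQO1 and TXNRD1 were the highest pair of the 9 genes in both Controls, NQO1 first in U251 and TXNRD1 first in U87. HMOX1 was at position 6 in U251 Control, below KEAP1, SLC7A11 and GCLM, and at position 2 in U251 Bru, between NQO1 and TXNRD1. In U87 it moved from position 3 in Control to position 2 in Bru, above NQO1. NQO1 had 15.7 times the FPKM of HMOX1 in U251 Control and 1.61 times in U251 Bru, and it had 1.07 and 0.867 times in U87 Control and Bru. Neighbours in the order whose levels could not be told apart by counting error were SLC7A11 and GCLM in U251 Control, with a log2 difference of 0.01 [-0.06, 0.09], and GCLM and SRXN1 in U87 Bru, with 0.08 [-0.11, 0.27]. The lowest of the 9 was SRXN1 in both U251 libraries and GCLC in both U87 libraries. Because 2292 of the 2698 exon bases of SRXN1 also belong to AL121758.1, its FPKM and its places in this order are uncertain.

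Among 35 other genes known as NRF2 targets, 29 were expressed. Of these 29, 5 were more than 2-fold higher in Bru in U251, beside 3.36% of all genes, and 0 in U87, beside 1.92%. The count of genes more than 2-fold lower was 0 in both lines, beside 5.44% in U251 and 1.41% in U87. The 5 were TRIM16L, FTH1, TRIM16, FTL and OSGIN1. The list had a median ratio of 0.15 in U251 and 0.01 in U87, beside -0.03 and -0.04 for all genes. FTH1 and FTL encode the ferritin heavy and light chains, which store iron such as that released by heme oxygenase. FTH1 had 424 and 1191 FPKM in U251 Control and Bru, with a ratio of 1.49, and 1112 and 1898 FPKM in U87, with a ratio of 0.77. FTL had 2664 and 6072 FPKM in U251, with a ratio of 1.19, and 2382 and 3592 FPKM in U87, with a ratio of 0.59. Together both chains took 0.313% and 0.805% of the reads in Control and Bru of U251, and 0.430% and 0.714% in those of U87.

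TRIM16L had the largest ratio of this list in U251, 1.98, with 11.3 FPKM in Control and 45.0 FPKM in Bru, and its ratio in U87 was 0.61. TRIM16, an E3 ligase gene with which TRIM16L shares 39.4% of its stretches of 50 bases, had a ratio of 1.42 in U251 and 0.37 in U87, and reads of this pair can be split between them. OSGIN1, a gene induced by oxidative stress, had a ratio of 1.13 and 0.48. TXN, thioredoxin, had 0.66 in U251 and 0.45 in U87, and PRDX1, a peroxiredoxin, had -0.15 and 0.14. PGD, TALDO1 and TKT, enzymes of the pentose phosphate pathway, were lower in Bru in U251, with ratios of -0.46, -0.28 and -0.34, and had ratios between -0.08 and 0.03 in U87. ME1, a further NADPH source, had 2 reads in U251 Bru and 0 in the other libraries. The lowest ratios of the list were those of PIR in U251, -0.81, and of AKR1C3 in U87, -0.43. Of the stretches of FTH1, 57.4% also occur in transcripts of other genes, most of them in BEST1.

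The 19 expressed partners and regulators of NRF2 had a median of 0.04 in U251 and of 0.09 in U87. Among them, 1 was past 2-fold, SQSTM1 in U251, where 3.36% of all genes were more than 2-fold higher. SQSTM1 encodes p62, which binds KEAP1 and carries it to autophagy. It had 118 and 507 FPKM in U251 Control and Bru, with a ratio of 2.10 [2.08, 2.13], and 203 and 278 FPKM in U87, with a ratio of 0.45 [0.43, 0.48]. BACH1, the repressor of HMOX1, had a ratio of -0.19 in U251 and 0.12 in U87, and the small MAF gene MAFG had -0.17 and 0.11. CUL3, the scaffold of the ligase that KEAP1 serves, had 0.04 and 0.10. The lowest ratios of this list belonged to NFE2L1, a relative of NRF2, in U251, -0.76, and to RXRA, a nuclear receptor, in U87, -0.32.

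In the list of heme and iron handling, 0 of 24 genes passed 2-fold in either line, with medians of -0.06 in U251 and 0.02 in U87. HMOX1, FTH1, FTL and BLVRB were counted in other groups above and are not among the 24. Of these, HMOX1, FTH1 and FTL were more than 2-fold higher in U251, so the count does not cover all heme and iron genes. Of all genes, 3.36% were past 2-fold higher and 5.44% lower in U251, and 1.92% and 1.41% in U87. HMOX2, the constitutive heme oxygenase, stayed between 6.84 and 8.07 FPKM in the 4 libraries, below HMOX1 in each of them. Its ratios were -0.13 [-0.31, 0.04] and 0.11 [-0.07, 0.28], and both intervals include 0. The biliverdin reductases, which act after heme oxygenase, had ratios of 0.27 and 0.17 (BLVRB) and -0.25 and -0.20 (BLVRA) in U251 and U87. SLC48A1, a heme transporter, had 0.41 and 0.07. ALAS1, the first enzyme of heme synthesis, had the largest ratio of the list in both lines, 0.84 and 0.40, and the lowest were PPOX in U251, -0.48, and ALAD in U87, -0.61, which act later in the same pathway.

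The 26 expressed genes of glutathione metabolism had a median of -0.17 in U251 and of 0.02 in U87, and SLC3A2 in U251 was the gene past 2-fold. GSS, which completes glutathione, had a ratio of 0.53 in U251 and 0.13 in U87, and GSR, which reduces it again, had -0.16 and -0.02. The lowest were GGT7 in U251, -0.60, and GPX8 in U87, -0.35. Among 21 genes of thioredoxins, peroxiredoxins and superoxide enzymes, with medians of -0.09 and -0.18, TXNIP was past 2-fold in U251. TXNIP, the inhibitor of thioredoxin, had 3.43 and 20.4 FPKM in U251 Control and Bru, a ratio of 2.54, and 4.15 and 3.99 FPKM in U87, a ratio of -0.05. CAT, catalase, was the lowest of this list in U251 with -0.69, while in U87 SESN2 was the highest with 0.60 and SOD3 the lowest with -0.70. Over the 5 lists together, 8 of 119 genes, or 6.72%, were more than 2-fold higher in U251, beside 3.36% of all genes. In U87 the count was 0, beside 1.92%. The count of genes more than 2-fold lower was 0 in both lines, beside 5.44% in U251 and 1.41% in U87. The lists were chosen with earlier results of these data known, so these shares describe the lists and test nothing.

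**Figure D4:**
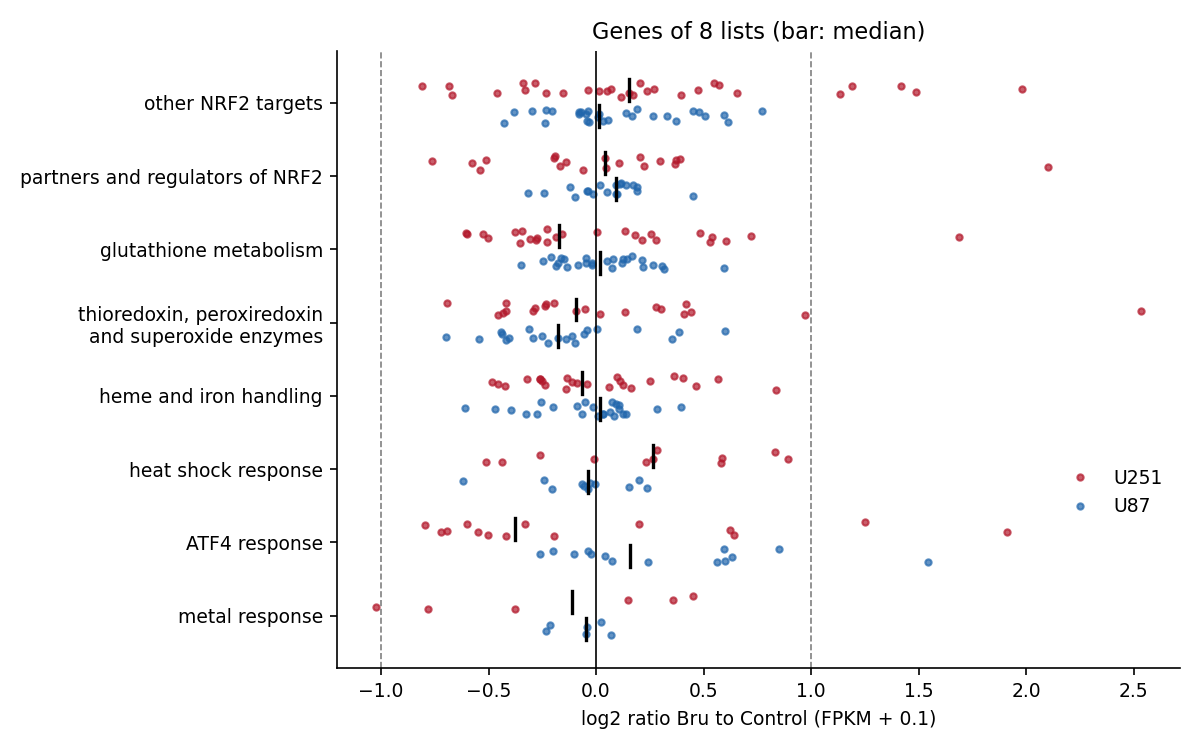
log2 ratio of Bru to Control for the expressed genes of 8 lists, 1 point per gene and line, with a bar at each median. Most points lie within 2-fold, and the medians lie between -0.37 and 0.26.

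The 5 protein-coding genes with the pattern most like that of HMOX1 over the 4 libraries, by Euclidean distance of log2(FPKM + 0.1) centred on each gene's mean and among 10850 candidates, were NR1D1, BIRC3, SQSTM1, DDIT3 and TMEM99, at distances of 1.18 to 1.38. NR1D1, a nuclear receptor of the circadian clock, was nearest. It had 5.66 and 21.5 FPKM in U251 Control and Bru and 16.5 and 24.9 FPKM in U87, with ratios of 1.91 and 0.59. BIRC3, an inhibitor of apoptosis, had 1.02 and 5.86 FPKM in U251 and 1.39 and 2.86 FPKM in U87, with ratios of 2.41 and 0.99. TMEM99 had ratios of 1.72 and 0.29. None of the other 8 genes of the NRF2 group was among the 5. With only 5 taken from 10850 candidates, their absence says little about the group.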

How the data were processed

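RNA of 4 cultures was sequenced as paired-end libraries, 1 for each line and condition. The authors deposited FPKM per gene with gene lengths. The submitters' processing notes name HISAT2 2.0.5, StringTie 1.3.3b, featureCounts 1.5.0-p3, DESeq2 1.16.1 and the build hg18, with no role or order, whereas the coordinates of all 58735 genes are those of GENCODE release 29 (GRCh38). FPKM times length was a whole multiple of 1 step for 100% of values (tolerance 0.001 reads), which gave reads per gene and the library size inside the FPKM.

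The log2 ratio was computed on FPKM + 0.1, which understates changes of low genes, and the printed intervals are without the pseudocount. They are 95% Clopper-Pearson intervals for 1 gene and exact conditional odds ratio intervals for ratios of ratios, and they cover counting error only. Genes averaging at least 1 FPKM were kept, and those past an absolute log2 ratio of 1 were counted, with no p-value. The 9 genes and the lists were chosen with earlier results of these data known. Named from the lists were genes picked by role and the highest and lowest ratio in each line, plus the 5 genes nearest to HMOX1. Part of the genes that this rule names are not reported here. PPP1R15A, TRIM16 and the glial and other cell markers are named beyond this rule, after their values were seen.

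Alternatives were a pseudocount of 1 or 0.01, scaling to a median of 0, the 75th percentile, TPM, total reads or without mitochondrial genes, a minimum of 0, 0.1 or 5 FPKM, protein-coding genes only, and an assumed coefficient of variation of 0.2 or 0.4. Scripts (Python 3.11.15, scipy 1.17.1, pandas 2.3.3) were tested on simulated data.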

Additional observations from a re-analysis of the deposited data

Results flagged for a closer look

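SLC7A11 drew attention because it went in opposite directions in the lines. It was lower in Bru in U251, with a log2 ratio of -0.24, and higher in Bru in U87, with 0.33, and both counting intervals left out 0. The difference of U251 minus U87 was -0.58. This difference was not tested over replicates, since each condition has 1 library.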

How the results depend on the processing

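Within a line no paired analysis was possible because Control and Bru have 1 library each, and for the same reason no library could be left out. A fit of both lines together, which would pair Control and Bru with line as a block, was not run. Over 7 other pseudocounts and scalings, the HMOX1 ratio ran from 3.45 to 3.62 in U251 and from 0.88 to 0.95 in U87. None of the 9 genes changed the sign of its ratio. The median of all genes moved by at most 0.07 in U251 and 0.05 in U87. Scaling to total reads still took NQO1, GCLM, TXNRD1 and SLC7A11 in U251 and TXNRD1 in U87 outside their counting intervals. For TXNRD1 in U251 the ratio went from 0.05 [0.02, 0.08] to 0.14, and for SLC7A11 from -0.24 [-0.31, -0.17] to -0.15. The coefficient of variation between replicates is not known, and assumed values changed several statements. With 0.4, the interval of HMOX1 in U87 (ratio 0.89) ran from -0.71 to 2.49, while in U251 it ran from 1.94 to 5.15. With 0.2 and with 0.4 alike, the other genes with an interval above 0 went from 5 to 0 in U251. In U87 they went from 7 to 0. With either value, the genes that HMOX1 exceeded in U87 went from 8 to 0. Those with a difference between lines went from 7 to 1. The share of all expressed genes with such intervals was not computed, so these counts set the 9 genes apart from no others. With a pseudocount of 0.01, 1 gene of the 5 redox and heme lists in place of 0 was more than 2-fold lower in U251; it was SOD3, which had 1 read in Control and 0 in Bru. Other filters on low values and protein-coding genes alone left each count of the 9 genes past 2-fold as it was. Depth limits SRXN1 most, whose interval in U251 includes 0.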

Other observations

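Genes of other stress responses were set beside HMOX1. Of 14 expressed genes of the ATF4 response, 2 were more than 2-fold higher in Bru in U251 (DDIT3 and PPP1R15A) and 1 in U87 (ATF3). Beside these counts stand 3.36% of all genes in U251 and 1.92% in U87. The median of the list was -0.37 in U251 and 0.16 in U87. DDIT3, which encodes the stress factor CHOP, had 12.2 and 46.2 FPKM in U251 Control and Bru, a ratio of 1.91, and 18.1 and 32.7 FPKM in U87, a ratio of 0.85. PPP1R15A, the stress-induced phosphatase subunit GADD34, had ratios of 1.25 and 0.56. ATF3 had 0.20 in U251 and 1.54 in U87. The lowest ratios were those of VLDLR in U251, -0.79, and of TRIB3 in U87, -0.26.

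Of 11 heat shock genes, 0 were past 2-fold in either line, with medians of 0.26 and -0.04. Of all genes, 3.36% were past 2-fold higher and 5.44% lower in U251, and 1.92% and 1.41% in U87. DNAJB4 was highest in both lines, with 0.89 in U251 and 0.24 in U87, and HSPA1B had 0.58 in U251 and -0.62 in U87, where it was the lowest, while HSPA8 was the lowest in U251 with -0.51. Of 12 genes of the metal response, 6 were expressed, with medians of -0.11 and -0.04. The zinc exporter SLC30A1 had 0.45 in U251 and -0.05 in U87. The metallothionein MT1F had -1.02 in U251, the one value of this list past 2-fold, and -0.23 in U87, and MT2A had -0.78 and 0.07.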
